A study of Mus musculus with 2 samples.

Results

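The miRNAs described here are those of the imprinted Dlk1-Dio3 locus, measured in extracellular vesicles (EVs, membrane particles that cells shed into their medium) from mouse astrocytes. They were chosen by name, as the probes of a rat NanoString miRNA code set whose number is 1 of 40 miRNA numbers known from this locus, and all 40 numbers had a probe. This gave 46 of the 420 miRNA probes, and all 420 probes, the members included, served as the comparison. The rule reads names and no counts, but it was set with earlier results of these data known.

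The cells were primary cortical astrocytes from GFAP-EGFP mice 1 day after birth, which carry a green fluorescent protein driven by the promoter of the astrocyte gene GFAP. They were kept in serum-containing medium and passaged before use. The IL-1β EVs came from several pooled flasks given the inflammatory cytokine interleukin-1β at 200 ng per ml in EV-free medium, and were collected 2 h later. The control EVs came from cells labelled with no treatment and were gathered over 24 h. Treatment and collection time differed together, so their parts in any difference cannot be told apart, and neither can fewer vesicles and less RNA per vesicle. With 1 sample in each group, the differences carry no replicate check and no p-value. Intervals are exact, at 95%, and cover counting error only.

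The locus carries protein-coding genes such as Dlk1, Rtl1 and Dio3 that are expressed from the paternal chromosome, and noncoding RNAs (Meg3, Rian, Mirg) expressed from the maternal chromosome. The miRNAs are processed from the maternal noncoding RNAs, and a set of them (miR-127, miR-136, miR-431, miR-433 and miR-434) is antisense to Rtl1 and can direct cleavage of its mRNA. They are best known from brain, placenta and embryo. In the brain they are mainly studied in neurons, where several members of the stretch from miR-379 to miR-410 are induced by activity and act on dendrites.

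All 46 probes could be placed on the mouse genome through RefSeq's GRCm38.p6 miRNA table. They fall on 42 hairpins on the plus strand of chromosome 12, chr12:109563692-109743795, a span of 180.1 kb from Mir770 to Mir410, between Dlk1 (chr12:109452485-109463336) and Dio3 (chr12:110279230-110281097). The first stretch, in Meg3 and opposite Rtl1, had 10 probes, the Rian stretch had 2 (miR-341 and miR-370), and the stretch from miR-379 to miR-410, called the Mirg stretch here, had 34. The annotated Mirg gene (chr12:109734981-109749458) covers that stretch only from miR-154 on, and the hairpins from miR-379 to miR-485 lie upstream of it. Of the probes, 8 name a hairpin arm (5p or 3p) and 38 do not. For 34 of these the table holds both arms, and the sources used here do not state which arm such a probe reads.

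The sequences below are the mouse mature forms of the 6 members with the highest summed counts (miR-544, miR-543, miR-539, miR-540, miR-154, miR-376b-5p), of the members called higher or lower (miR-329, miR-411), and of the members that share a seed with these (miR-376c-5p, miR-379-3p). They are credited to RefSeq (GRCm38.p6), written 5′ to 3′, with the seed, bases 2 to 8, in capitals. Both arms are shown where the probe names none and the table holds both.
mmu-miR-544-5p: uCUUGUUAaaaagcagagucu
mmu-miR-544-3p: aUUCUGCAuuuuuagcaagcuc
mmu-miR-543-5p: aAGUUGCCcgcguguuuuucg
mmu-miR-543-3p: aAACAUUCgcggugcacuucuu
mmu-miR-539-5p: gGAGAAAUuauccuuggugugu
mmu-miR-540-5p: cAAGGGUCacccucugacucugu
mmu-miR-540-3p: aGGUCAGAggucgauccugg
mmu-miR-154-5p: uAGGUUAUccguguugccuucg
mmu-miR-154-3p: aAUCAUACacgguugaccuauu
mmu-miR-376b-5p: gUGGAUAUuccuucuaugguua
mmu-miR-376c-5p: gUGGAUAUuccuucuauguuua
mmu-miR-329-5p: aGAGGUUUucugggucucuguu
mmu-miR-329-3p: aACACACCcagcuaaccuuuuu
mmu-miR-411-5p: uAGUAGACcguauagcguacg
mmu-miR-411-3p: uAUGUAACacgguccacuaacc
mmu-miR-379-3p: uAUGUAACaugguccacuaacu

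The 80 mature forms matched to the probes hold 77 distinct seeds, and 3 seeds were shared within the locus: UGGAUAU by miR-376b-5p and miR-376c-5p, AUGUAAC by miR-379-3p and miR-411-3p, and GGUUGUC by miR-494-5p and miR-410-5p. A further 14 seeds also occur in mouse miRNAs that are no member, among them those of miR-329-3p (shared with miR-362-3p), miR-411-5p (with miR-7229-5p) and miR-540-3p (with miR-6915-5p). Near-identical forms can be read by the same probe. The pair miR-376b-5p and miR-376c-5p is identical at 21 of 22 bases, miR-411-3p and miR-379-3p at 20 of 22, and miR-381-3p and miR-300-3p at 19 of 22, so counts of these probes are uncertain as to which form they hold. The nearest mouse form to either arm of miR-544 has 13 identical bases.

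The depth was low. The 420 miRNA probes summed to 13514 counts in IL-1β EVs against 16812 in control EVs, and the median probe had 5 counts in each. The background threshold of a sample was set at the mean + 2 SD of its 8 negative-control probes, which was 9.67 counts in IL-1β EVs against 6.41 in control EVs. Of the astrocyte markers, 10 of 13 probes were above background in both samples, and they summed to 3278 counts in IL-1β EVs against 4802 in control EVs. The astrocyte probes above background in neither sample were miR-125a-3p, miR-125b-3p and miR-143. Of 10 neuron-marker probes, 7 were above background in neither sample, among them miR-124 (5 counts in IL-1β EVs against 1 in control EVs), miR-9 (0 in IL-1β EVs against 1 in control EVs) and miR-128 (1 in IL-1β EVs against 4 in control EVs), and the list summed to 41 counts in IL-1β EVs against 96 in control EVs. The other 3 were miR-132, called lower at 13 counts in IL-1β EVs against 58 in control EVs, miR-218a (12 in IL-1β EVs against 12 in control EVs) and miR-218b (8 in IL-1β EVs against 12 in control EVs). Markers of microglia and leukocytes summed to 23 counts in IL-1β EVs against 26 in control EVs over 4 probes. Mural and fibroblast markers were higher, at 843 counts in IL-1β EVs against 1465 in control EVs over 5 probes, 4 of them above background in both samples. Oligodendrocyte markers summed to 241 counts in IL-1β EVs against 454 in control EVs over 6 probes. Above background in both samples were miR-23a, which is also on the astrocyte list, and miR-32. They had 150 and 78 counts in IL-1β EVs against 336 and 104 in control EVs. The miR-219-5p probe passed in control EVs only, at 6 counts in IL-1β EVs against 8 in control EVs. The miR-338 probe had 1 count in IL-1β EVs against 1 in control EVs and was above background in neither sample. Nor were miR-219-1-3p (5 in IL-1β EVs against 1 in control EVs) and miR-219-2-3p (1 in IL-1β EVs against 4 in control EVs). The part of such cells in the members' counts was not tested.

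In each preparation a minority of the members was above background. In IL-1β EVs 13 of the 46 members (28.3%) were above background, where 34.8% of all probes were. In control EVs it was also 13 (28.3%), where 44.0% of all probes were. Above background in both samples were 11 members, in at least 1 sample 15, and in neither 31. At the edge, the lowest member above the IL-1β threshold was miR-493 at 11 counts and the highest below it was miR-410 at 8 counts. In control EVs the lowest above was miR-134 at 7 counts, and 7 members stood just below at 5 counts.

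The negative controls are not the only view of background. The code set has 71 rat probes whose number has no mouse miRNA gene in the tables used here. Of these, 57.7% passed the negative-control threshold in IL-1β EVs against 69.0% in control EVs, where 28.3% of the members did in each. The median counts of these rat probes were 15 in IL-1β EVs against 13 in control EVs. They lay above the members' medians of 3 in IL-1β EVs against 4 in control EVs. The 95th percentile of the rat probes was 108 counts in IL-1β EVs against 103.5 in control EVs, and 1 member, miR-544, exceeded it in either sample. The share of all probes above it was not computed. The highest count among these rat probes was 270 in IL-1β EVs against 238 in control EVs. With 225 in IL-1β EVs against 183 in control EVs, miR-544 thus lay within their range. What the members' counts owe to such binding, those of miR-544 included, was not tested.

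Together the 46 members held 602 counts in IL-1β EVs (95% interval 555 to 652) against 556 in control EVs (511 to 604). As a share of all miRNA counts this was 4.45% in IL-1β EVs (4.11 to 4.82) against 3.31% in control EVs (3.04 to 3.59). More than any other member, miR-544 carried the sum, and with its counts left out of members and total the share was 2.84% in IL-1β EVs against 2.24% in control EVs. The scaled ratio of the summed members was 1.24 (1.10 to 1.39), and without miR-544 it was 1.15 with an interval that included 1 (0.998 to 1.34). The probes with no mouse counterpart also held a larger share in IL-1β EVs, at 16.7% in IL-1β EVs against 12.1% in control EVs, and their part in the members' shift was not tested.

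**Figure D1:**
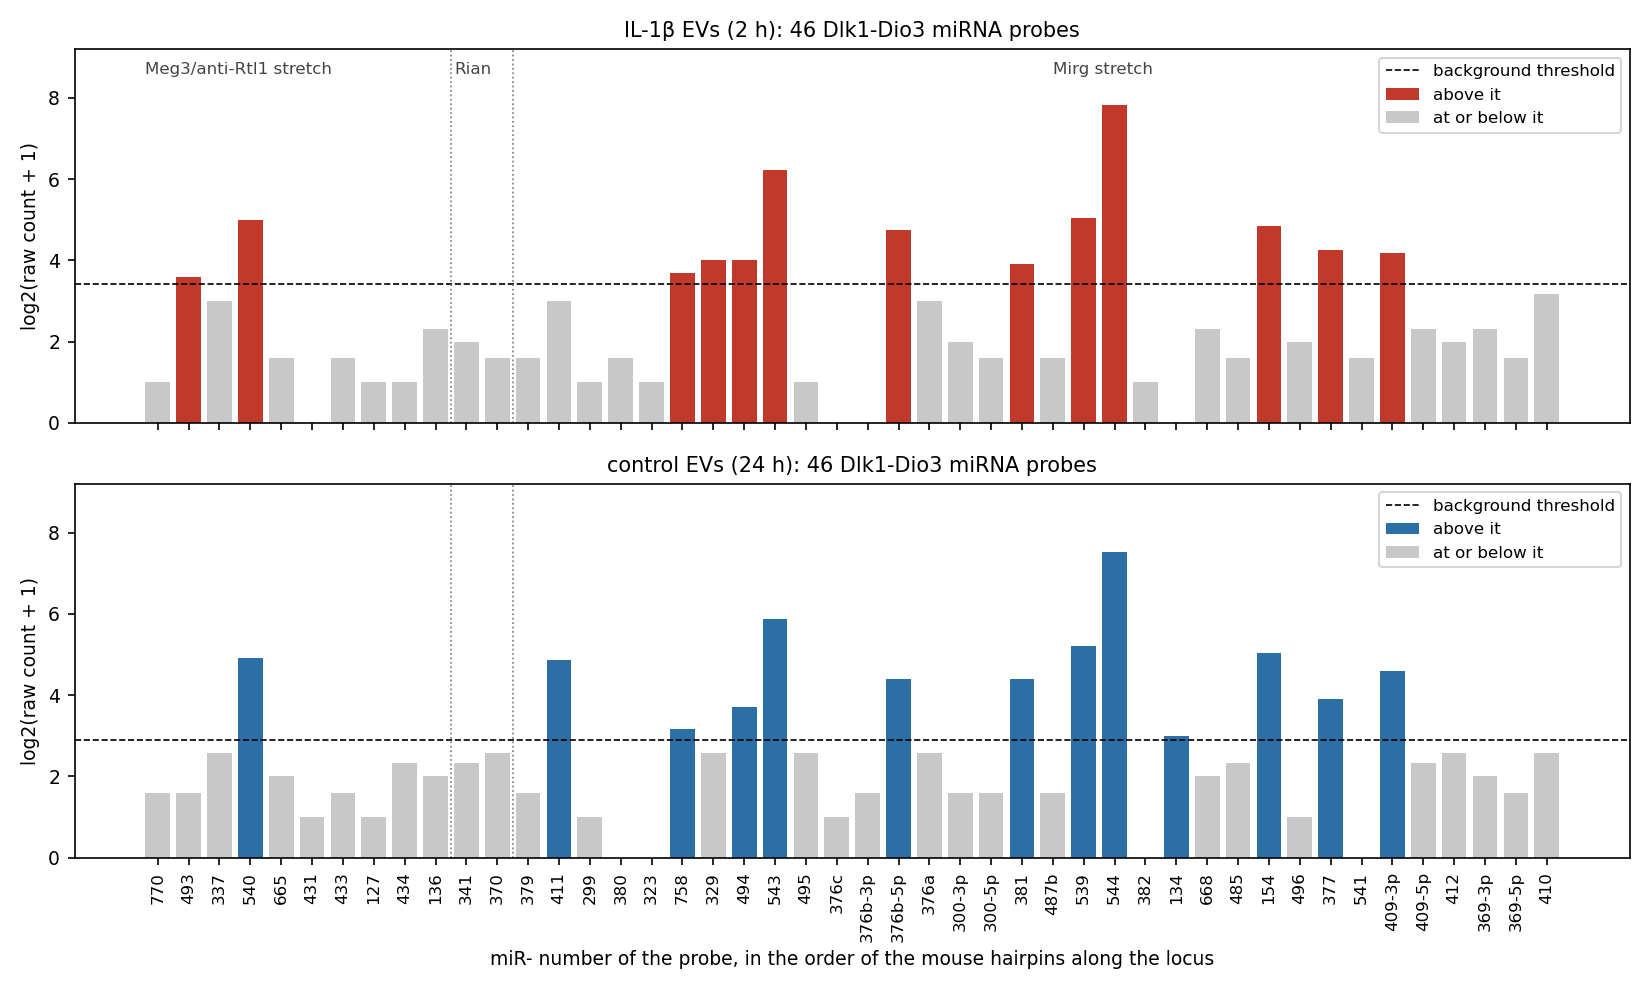
Raw counts of the 46 Dlk1-Dio3 probes in IL-1β EVs (top) and control EVs (bottom), as log2(count + 1), in the order of the mouse hairpins along the locus. Coloured bars are above the dashed background threshold of that sample and dotted lines separate the stretches. The members above background are scattered among members below it, and miR-544 is the highest in both samples, at 225 counts in IL-1β EVs against 183 in control EVs.

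In the Meg3 and anti-Rtl1 stretch 2 of 10 members were above background in IL-1β EVs against 1 of 10 in control EVs. That stretch summed to 60 counts in IL-1β EVs against 52 in control EVs, of which miR-540 gave 31 in IL-1β EVs against 29 in control EVs. In the Rian stretch neither probe passed in either sample, at 5 summed counts in IL-1β EVs against 9 in control EVs. The Mirg stretch had 11 of 34 members above background in IL-1β EVs (32.4%) against 12 of 34 in control EVs (35.3%), no larger than the 34.8% and 44.0% over all probes in those samples, and held 3.97% of all miRNA counts in IL-1β EVs against 2.94% in control EVs. Counts of different probes also depend on how well each is captured, so they give no order of abundance between miRNAs. Neighbours on the same strand could stand far apart in count: miR-411 lies 1049 bases downstream of miR-379, which had 2 counts in both samples, and miR-544 lies 1132 bases downstream of miR-539.

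None of the 5 antisense-Rtl1 miRNAs was above background in either sample, as was the case for 31 of the 46 members and 228 of all 420 probes. The probe for miR-127, which can direct cleavage of Rtl1 mRNA, had 1 count in IL-1β EVs against 1 in control EVs. Of its neighbours, miR-434 had 1 count in IL-1β EVs against 4 in control EVs, and miR-433 had 2 in IL-1β EVs against 2 in control EVs. The miR-431 probe had 0 counts in IL-1β EVs against 1 in control EVs, and miR-136 had 4 in IL-1β EVs against 3 in control EVs. A count of 0 allows up to 3 counts, as a one-sided 95% limit. These 5 were singled out after their values were seen, because of their known action on Rtl1. Of the members above background in neither sample, the 5 with the highest summed counts were miR-410 (8 counts in IL-1β EVs against 5 in control EVs), miR-337 and miR-376a (each 7 in IL-1β EVs against 5 in control EVs), miR-409-5p (4 in IL-1β EVs against 4 in control EVs) and miR-412 (3 in IL-1β EVs against 5 in control EVs). The 31 members of this kind ranged from 0 to 8 counts in IL-1β EVs and from 0 to 5 in control EVs, with a median of 2 in both.

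For the comparison, IL-1β counts were divided by control counts and scaled by the geometric mean of the 100 probes with the highest mean counts, a factor of 0.875. Where only 1 sample of a member passed, its count was set against the threshold of the sample that did not, which gives a bound. No value was given where such a bound pointed the other way. This left 14 members with a ratio or bound. They stood above 1 in 10 and below 1 in 4, and their median log2 ratio was 0.50, against 0.24 over all 160 probes with a value and 0.37 over the probes with no mouse counterpart. Of those 160 probes, 102 stood above 1, as did 34 of the 44 with a value that have no mouse counterpart. A call of higher or lower needed a ratio or bound of 2-fold or more and a counting interval clear of 1. By this rule 1 member, miR-329, was called higher (2.14% of all probes were) and 1, miR-411, was called lower (3.57% of all probes were). At 1 of 46 members in each direction, the locus was close to that background. Both called members lie below the 95th percentile of the rat-only probes described above.

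The sign of the lean rests on the scale. With scaling on the positive controls, synthetic targets added to each lane, the median of the members was -0.27, and the summed members were at 0.718 of the control (0.639 to 0.807) in place of 1.24 (1.10 to 1.39). The other scalings tried kept the median above 0, between 0.15 and 0.63. For the summed members the interval included 1 with the median ratio (1.02, 0.911 to 1.15) and with no scaling (1.08, 0.963 to 1.22). It also did with probes with no mouse counterpart (0.968, 0.861 to 1.09), where the ratio itself lay below 1. With total count and with the 50 highest probes the summed ratio was 1.35 in each, with intervals above 1.

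**Figure D2:**
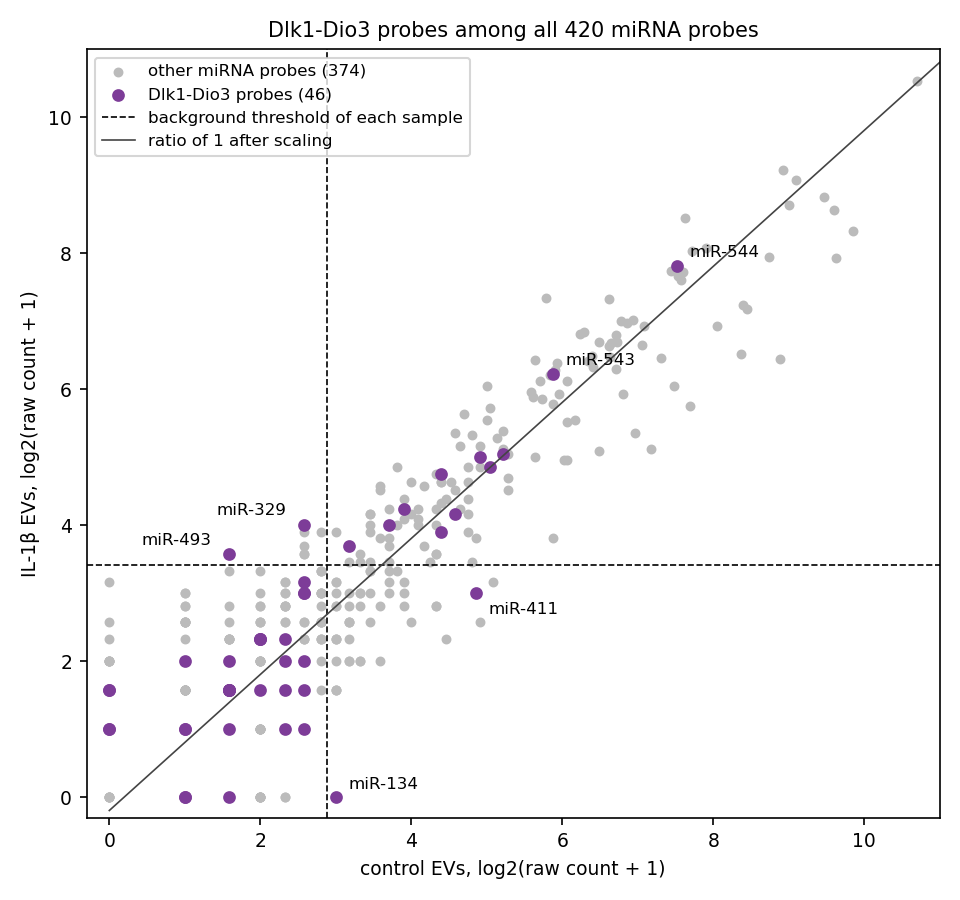
Raw counts of all 420 miRNA probes as log2(count + 1), with IL-1β EVs on the y axis and control EVs on the x axis; purple points are the 46 Dlk1-Dio3 probes and dashed lines the background thresholds. Most members lie below both thresholds, 11 lie above both, and miR-411 (7 counts in IL-1β EVs against 28 in control EVs) sits to the right of the line that marks a ratio of 1 after scaling.

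The highest member was miR-544, with 225 counts in IL-1β EVs against 183 in control EVs. It ranked 13 of 420 probes in IL-1β EVs against 22 in control EVs, and held 1.66% of all miRNA counts in IL-1β EVs against 1.09% in control EVs. Its scaled ratio was 1.40 (1.15 to 1.72), under 2-fold with an interval above 1, and 0.816 (0.668 to 0.997) with positive-control scaling. The interval included 1 with the median ratio (0.952 to 1.42) and with probes with no mouse counterpart (0.901 to 1.34). The probe for miR-543 had 74 counts in IL-1β EVs against 58 in control EVs, a ratio of 1.46 (1.02 to 2.09). That interval reached to both sides of 1 with positive controls (0.592 to 1.21), with no scaling (0.893 to 1.83), with the median ratio and with probes with no mouse counterpart. The 3p arm of miR-543 shares its last 12 bases with that of miR-495, whose probe had 1 count in IL-1β EVs against 5 in control EVs. The miR-495 probe was above background in neither sample.

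The member called higher, miR-329, belongs to a cluster induced by activity in rat hippocampal neurons. Its probe had 15 counts in IL-1β EVs against 5 in control EVs, the control count being below the threshold. The bound was at least 2.67-fold higher, and the counting interval of the ratio itself ran from 1.18 to 12.1. The call was lost with positive-control scaling, where the bound was 1.55. It was also lost with the median ratio (bound 2.21) and with probes with no mouse counterpart (bound 2.09), where the counting interval of the ratio then included 1. The hairpins on either side had ratios whose intervals included 1. Upstream, miR-758, which has been reported to repress the cholesterol transporter ABCA1, had 12 counts in IL-1β EVs against 8 in control EVs, a ratio of 1.71 (0.644 to 4.83). Downstream, miR-494 had 15 counts in IL-1β EVs against 12 in control EVs, a ratio of 1.43 (0.624 to 3.34).

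The member called lower, miR-411, had 7 counts in IL-1β EVs, below the threshold, against 28 in control EVs. The bound was at least 2.54-fold lower, and the interval of the ratio ran from 0.105 to 0.669. With a background threshold of mean + 3 SD the call was lost, since the higher threshold for IL-1β EVs then weakens the bound. Under each scaling tried miR-411 was called lower, its bound ranging from a ratio of 0.229 to 0.430. The neighbouring probes, shown for their position, were below the threshold in both samples: miR-379 had 2 counts in IL-1β EVs against 2 in control EVs, and miR-299 had 1 in IL-1β EVs against 1 in control EVs.

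At the low end of the counts stood miR-493 and miR-134. The probe for miR-493 had 11 counts in IL-1β EVs against 2 in control EVs, where it was below background. The count ratio was 6.28 (interval 1.37 to 58.3). Its bound against the control threshold, 1.96, fell short of 2-fold, so it was not called. The probe for miR-134, which restrains dendritic spine size in rat neurons by acting on the kinase mRNA Limk1, had 0 counts in IL-1β EVs against 7 in control EVs. The counting interval of its ratio ran from 0 to 0.793, below 1. It was given no fold, since 7 counts lie below the IL-1β threshold of 9.67, and it is not among the 14 members with a value.

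**Figure D3:**
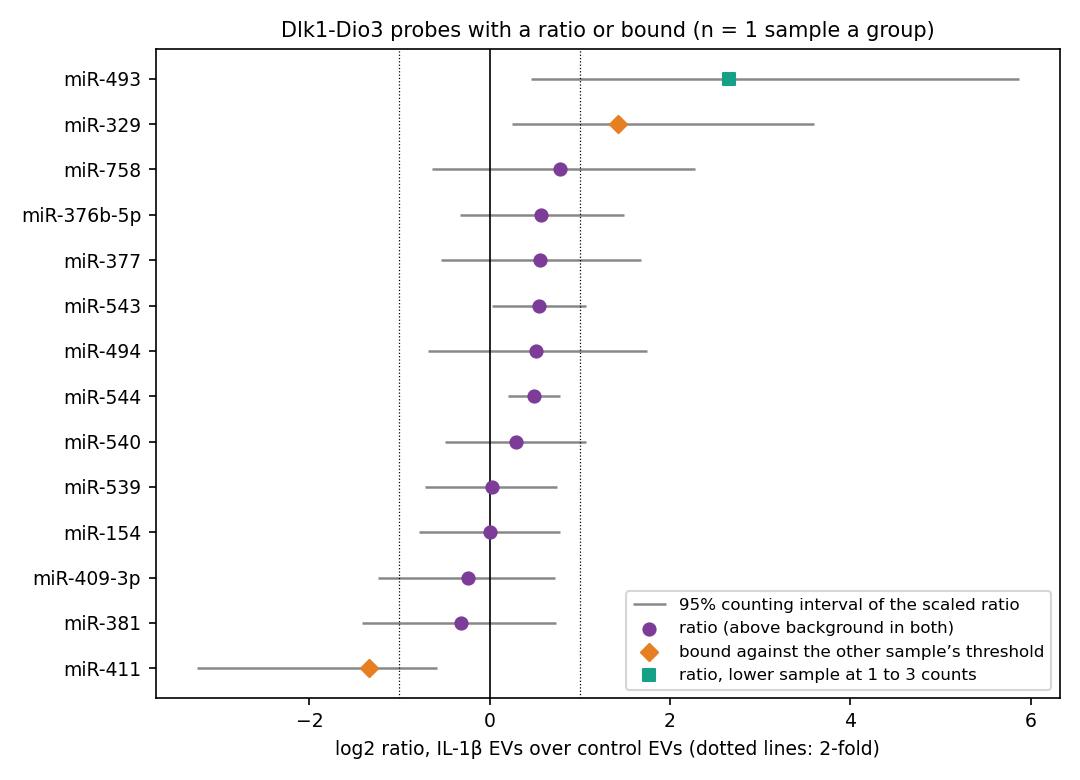
Log2 ratio of IL-1β EVs over control EVs for the 14 Dlk1-Dio3 members with a ratio or bound, with 95% counting intervals of the scaled ratio; circles are ratios, diamonds bounds, and the square is miR-493, whose control count was 2. The intervals of 9 members include 0, and miR-329 and miR-411 are the 2 members called.

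For the other members above background, the counting intervals on the main scale were wide and included 1. Of the Meg3 and anti-Rtl1 stretch, miR-540 had 31 counts in IL-1β EVs against 29 in control EVs, a ratio of 1.22 (0.712 to 2.1). In the Mirg stretch miR-539 had 32 counts in IL-1β EVs against 36 in control EVs, a ratio of 1.02 (0.611 to 1.68), and miR-154 had 28 counts in IL-1β EVs against 32 in control EVs, a ratio of 1.00 (0.580 to 1.71). These 3 differed by less than counting error on this scale, and the intervals still allow changes of up to 2.1-fold. With positive-control scaling the intervals of miR-539 (0.590, 0.355 to 0.977) and miR-154 (0.580, 0.337 to 0.995) lay below 1. The miR-377 probe had 18 counts in IL-1β EVs against 14 in control EVs, a ratio of 1.47 (0.690 to 3.19). For miR-376b-5p it was 26 counts in IL-1β EVs against 20 in control EVs, a ratio of 1.49 (0.797 to 2.81). On the other side of 1 stood miR-381 with 14 counts in IL-1β EVs against 20 in control EVs, a ratio of 0.800 (0.374 to 1.66). There too was miR-409-3p with 17 counts in IL-1β EVs against 23 in control EVs, a ratio of 0.844 (0.423 to 1.65). Each of these intervals included 1. Among the 14 members with a value, the interval lay above 1 for 4 members (miR-329, miR-493, miR-543, miR-544; 19.4% of all probes with a value) and below 1 for 1 member (miR-411; 16.9% of all probes with a value). With positive-control scaling, which gives 15 members a value, it lay above 1 for 0 members (1.04% of all probes with a value) and below 1 for 7 (43.2% of all probes with a value), namely miR-134, miR-154, miR-381, miR-409-3p, miR-411, miR-539 and miR-544.

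Both arms of a hairpin had probes in 4 cases. For mir-376, a group of hairpins known for A-to-I editing in the seed in brain, the miR-376b-5p probe had 26 counts in IL-1β EVs against 20 in control EVs, while miR-376b-3p had 0 in IL-1β EVs against 2 in control EVs. The 5p arm of miR-409 had 4 counts in IL-1β EVs against 4 in control EVs, below those of its 3p arm. Both arms of miR-300 and miR-369 were below the threshold in both samples, at 2 to 4 counts. The arm with the higher count was the same in both preparations for miR-376b and miR-409, but arms differ in how well their probes capture them.

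The code set held 7 probes for other miRNAs of the locus that the number list leaves out: both arms of miR-1188 and miR-1193, and miR-666, miR-667 and miR-673. They summed to 17 counts in IL-1β EVs against 20 in control EVs. Of these, 1 probe, miR-1188-3p, passed the threshold, in control EVs only, with 2 counts in IL-1β EVs against 7 in control EVs, and none was called.

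The authors' deposited table of normalized signals lists 6 members of the locus, and 9 members above background in the raw counts are not among them. The sources used here do not state the normalization of those signals, and they carry no error. In the authors' deposited table miR-411 had a signal of 122.26 in IL-1β EVs against 266.23 in control EVs, a ratio of 0.459 that points the same way as its raw counts. The signals did not keep the order of the raw counts across probes. In IL-1β EVs the miR-411 signal lay above that of miR-544 (110.97), with raw counts of 7 for miR-411 and 225 for miR-544. The table gives miR-543 a signal of 132.05 in IL-1β EVs against 82.06 in control EVs, a ratio of 1.61, close to the 1.46 from raw counts. In the same deposited table miR-539 was level at 43.1 in IL-1β EVs against 43.07 in control EVs, as in the raw counts. The authors' deposited table differed for miR-544, with 110.97 in IL-1β EVs against 123.4 in control EVs, a ratio of 0.899 that lies outside the interval from raw counts on the main scale and inside that with positive-control scaling (0.668 to 0.997). It also put miR-154 lower, at 96.55 in IL-1β EVs against 157.01 in control EVs, a ratio of 0.615 within the raw interval. For miR-540 the authors' deposited table lists no IL-1β signal and 30.25 in control EVs. Over the 119 probes with both signals the median ratio was 0.883.

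**Figure D4:**
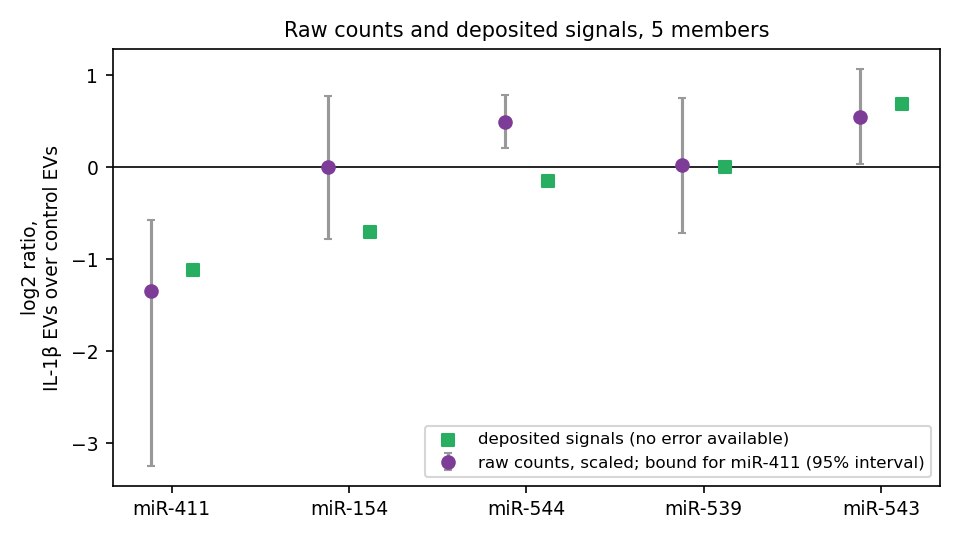
Log2 ratio of IL-1β EVs over control EVs for the 5 members with both deposited signals, from scaled raw counts (circles, 95% counting intervals, a bound for miR-411) and from the authors' deposited table (squares, no error available). Both sources put miR-411 lower and miR-543 higher, and miR-544 lies on opposite sides of 0.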

How the data were processed

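NanoString nCounter counting, a hybridisation assay with colour-coded reporters for tagged small RNAs, was run on 1 EV sample a group. Per the file headers, the deposited raw files hold reporter counts of a rat miRNA code set with no normalization. The scanner counted 1139 fields of view in IL-1β EVs against 1121 in control EVs, out of 1150 attempted in either, per the file headers. The normalized signal and the ratio of IL-1β over control in the authors' deposited table were normalized by steps not given in the sources used here. A further deposited table repeats these signals. The file of the IL-1β sample separates its lines by carriage returns alone.

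From the counts, background thresholds, scaled ratios and bounds were computed as described above in Python 3.11.15 with scipy 1.17.1. Exact Clopper-Pearson intervals were used for shares and ratios, and exact Poisson intervals for counts. The rule for calls was run on simulated counts with known fold changes. Those counts held counting error only and used the known scale factor, so the run does not cover errors of scale or binding. Miscalling of reporters, cross-hybridisation and ligation bias are not covered by the intervals. Mouse positions and sequences came from RefSeq tables of GRCm38.p6, and the rat probe targets were not analysed here. The members and lists were chosen with earlier results of these data known. Members above background in at least 1 sample were named, with the 5 highest of the others, and exceptions are stated. Alternatives covered scaling, background subtraction, thresholds, fold minimums and the members that enter.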

Additional observations from a re-analysis of the deposited data

Results flagged for a closer look

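Outside the miRNA comparison, the code set carries probes for 4 mRNAs, and all had more counts in IL-1β EVs than in control EVs. On the scale used for the miRNAs, the actin mRNA Actb was 63.3-fold higher in IL-1β EVs. The ribosomal protein mRNA Rpl19 was 7.49-fold higher, the glycolytic Gapdh 34.8-fold, and the MHC class I subunit mRNA B2m 5.79-fold. Each was counted in 1 sample a group.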

How the results depend on the processing

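No paired analysis was possible because each group held 1 sample, and for the same reason no sample could be left out. Scalings moved every log2 ratio by -0.78 (positive controls), 0.12 (total count), -0.27 (median ratio), -0.19 (none), 0.13 (50 highest probes) and -0.35 (probes with no mouse counterpart, added after seeing the data, as were that threshold and the results without miR-544). The median log2 ratio of the members turned to -0.27 with positive controls, and was 0.63 with total count and with the 50 highest probes, 0.23 with the median ratio, 0.31 with none and 0.15 with probes with no mouse counterpart. It was 0.39 with a threshold of mean + 3 SD and 0.19 over all members with 0.5 added to each count. Members called higher numbered 0 with positive controls and with a fold minimum of 4, where 0% of all probes were. They also numbered 0 with the median ratio (0.476% of all probes) and with scaling on probes lacking a mouse counterpart (0.238%). They numbered 2 (miR-329 and miR-493) with total count and with the 50 highest probes (3.57% of all probes in each). The same 2 were called with the negative-control mean subtracted (2.86% of all probes) and with a fold minimum of 1.5 (4.52%). A threshold of mean + 1 SD (2.62%) or of the highest negative control (2.38%) also gave these 2. Members called lower numbered 3 with positive controls (miR-381, miR-409-3p and miR-411), where 11% of all probes were. They numbered 0 with mean + 3 SD (2.86% of all probes) and with a fold minimum of 4 (0.238%). Members above background in control EVs numbered 20 with mean + 1 SD, and 1 in both samples at the 95th percentile of probes with no mouse counterpart. The share of all probes above these 2 thresholds was not computed, so these counts are not set against the rest of the code set. The share of miRNA counts was 4.00% in IL-1β EVs against 2.82% in control EVs after subtraction, 5.34% in IL-1β EVs against 3.76% in control EVs among probes with a mouse counterpart, and 2.84% in IL-1β EVs against 2.24% in control EVs without miR-544. Of the ratios of single members, the value left its main interval for 5 of 14 with positive controls, for 1 of 14 with probes with no mouse counterpart, and for 1 of 5 with deposited signals. Depth limits most members to the statement that they were not above background, since the median member had 3 counts in IL-1β EVs against 4 in control EVs.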

Other observations

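Other imprinted miRNAs on the code set were above background in some cases. Of the Sfmbt2 cluster, a rodent imprinted miRNA group inside an intron of Sfmbt2, 3 of 4 probes were above background in both samples, and the 4 summed to 753 counts in IL-1β EVs against 642 in control EVs. That cluster had more counts over 4 probes than the 46 Dlk1-Dio3 probes had together. Most of them came from miR-466c, which had 600 counts in IL-1β EVs against 486 in control EVs. Since probes differ in how well they capture, this gives no order of abundance between the loci. The miRNA of the imprinted gene Mest, miR-335, had 12 counts in IL-1β EVs against 17 in control EVs. The Gnas-locus probes miR-296 (1 count in IL-1β EVs against 2 in control EVs) and miR-298 (4 in IL-1β EVs against 3 in control EVs) and the H19 miRNA miR-675 (3 in IL-1β EVs against 0 in control EVs) were above background in neither sample.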
